A study of Mus musculus with 4 samples.

Results

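The cells described here were the Foxp3-negative CD4 T cells of B16F10 melanomas, 82 of 9461 barcodes kept over 4 single-cell RNA libraries. They were chosen by their transcripts: at least 1 UMI (unique molecular identifier, a count of captured RNA molecules) of Cd4, at least 1 over Cd3d, Cd3e and Cd3g, and no UMI of Foxp3, Cd8a, Cd8b1 or Siglech. A barcode also needed at most 1 C1qa, C1qb or C1qc UMI and fewer than 10 UMIs over the pigment genes Pmel, Mlana, Tyrp1 and Dct. Barcodes entered only if 300 or more genes and 500 or more UMIs were detected and mitochondrial transcripts did not exceed 20%. B16F10 is a transplantable mouse melanoma line that responds poorly to checkpoint antibodies, and the study asked how combining drugs with such an antibody alters the cells of its tumours.

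The 4 libraries came 1 to a group. The D+F+P tumours had received doxorubicin, fasudil and an antibody against PD-1. The D+F tumours had received doxorubicin and fasudil without the antibody, the aPD-1 tumours the antibody against PD-1 alone, and the control tumours are labelled only as control. Doxorubicin is an anthracycline known to cause immunogenic death of tumour cells, fasudil inhibits the kinases ROCK1 and ROCK2, and PD-1 is an inhibitory receptor on activated T cells. All tumours carried the same melanoma line, and the number of mice behind a library and the mouse strain, age and doses are not given in the sources used here. Tumours were digested, freed of red cells, debris and dead cells, and captured on the 10x Chromium 5′ chemistry. With 1 library per group, no difference between groups could be tested, and intervals in the comparisons of libraries cover counting error only.

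CD4 T cells read peptides shown on MHC class II. Conventional, or helper, CD4 T cells license dendritic cells through CD40 ligand (Cd40lg) and drive other immune cells through co-stimulatory ligands of the tumour necrosis factor family and through cytokines, while regulatory CD4 T cells, marked by the transcription factor Foxp3, restrain these responses. In tumours the helper kind can sustain CD8 T cells or kill target cells directly.

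The deposited libraries held 2739 barcodes and 22691663 UMIs for D+F+P, 2809 and 31937128 for D+F, 2525 and 27216211 for aPD-1, and 2529 and 34444856 for control. Among kept barcodes the median was 1876 UMIs in D+F+P, 12887.5 in D+F, 9589 in aPD-1 and 16162.5 in control, so the D+F+P library stood apart in depth. The Foxp3-negative CD4 T cells themselves were closer to each other, with medians of 2665.5 UMIs in D+F+P, 3260 in D+F and 2337 in aPD-1, and 5167 UMIs in the single control cell. Their summed UMIs, on which every level below rests, came to 137002, 99403, 77489 and 5167 in that order. Across the libraries 50 barcode sequences occurred more than once, and 3 of the 82 cells, 1 in D+F+P and 2 in D+F, carried such a sequence.

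The CD3 and Cd4 counts chose the cells, so their values are a description. The median cell held 7 UMIs over the CD3 genes, and 6 cells held only 1. Cd3e, a chain of the T cell receptor complex, stood at 985 CPM (the gene's UMIs over all UMIs of the cells, scaled to counts per 1e+06) in D+F+P, 805 in D+F, 955 in aPD-1 and 581 in the control cell. For Cd4, 49 cells held 1 UMI and 33 held 2 or more, with a maximum of 6. Just outside the boundary, 610 barcodes failed on Cd4 alone, 43 on Foxp3 alone, 17 on Cd8 alone, 8 on CD3 alone and 1 on pigment alone. Of the 17 that had both Cd4 and Cd8, 6 held 1 Cd8 UMI. A CD8 T cell with no Cd8 UMI and a Cd4 UMI from another cell would also meet the rule. The number of such cells was not measured.

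The label of conventional CD4 T cells was only partly borne out, so the cells are called here by what was measured. Icos, an inducible co-stimulatory receptor of activated CD4 T cells, had a UMI in 47 of the 82 cells and stood at 394 CPM in D+F+P, 272 in D+F, 439 in aPD-1 and 0 in the control cell. Icos also had a UMI in 594 of 1271 CD8 T cells, at a median depth of 5322 against 2584 UMIs. Against Foxp3-positive CD4 T cells it had a log2 fold of -0.80 and was not called. Cd40lg, the helper ligand on chromosome X (57212143 to 57224042, plus strand, GRCm38), had a UMI in 10 of 82 cells (12.2%, exact 95% interval 6.01 to 21.3%). It was met in 2 of 43 Foxp3-positive CD4 T cells, 2 of 1271 CD8 T cells and 1 of 5096 melanoma cells. Cd40lg counts were 4 UMIs in D+F+P, 6 in D+F, 1 in aPD-1 and 0 in control, too few for a test.

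Some of the cells shared transcripts with regulatory T cells. Il2ra, the high-affinity interleukin-2 receptor chain, or Ikzf2, the transcription factor Helios, had a UMI in 33 of 82 cells: 16 of 36 in D+F+P, 6 of 22 in D+F, 11 of 23 in aPD-1 and 0 of 1 in control. The same genes were met in 40 of 43 Foxp3-positive cells, 497 of 1271 CD8 T cells and 370 of 5096 melanoma cells. Depth moved with this share, the median being 3533 UMIs in the cells with Il2ra or Ikzf2 and 2166 in those without. The Foxp3-positive cells were deeper than the 82 cells, with medians of 4198 and 2584 UMIs. Depth also bears on the Foxp3 criterion. Of the Foxp3-positive cells, 18 of 43 held a single Foxp3 UMI. Thinned to 1000 UMIs, an expected 43.7% of those deep enough would still show one, against 68.8% at 2000 UMIs, and 10 of the 82 cells had 1000 UMIs or fewer and 26 had 2000 or fewer. Some Foxp3-expressing cells can therefore sit among the 82, and their number was not measured.

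Pigment gene transcripts were present in most of the cells, with at least 1 pigment UMI in 60 of 82 and a maximum of 6. Whether they came from free RNA or from doublets was not tested. Of the cells with none, 15 were in D+F+P, 1 in D+F, 6 in aPD-1 and 0 in control. Several markers of other lineages were at 0 over the 82 cells, while other members of the same lists were not. Of the NK list, Ncr1, Klrb1c, Klre1, Klra4, Klra8 and Eomes had no UMI, and the list's 9 genes summed to 58.4 CPM in D+F+P, 10.1 in D+F, 348 in aPD-1 and 0 in control. Fcer1g, in both the NK and the innate-like T cell list, had 14 UMIs in aPD-1. The macrophage genes Csf1r, Adgre1, Fcgr3, Ms4a7 and Itgam were at 0, and that list's 10 genes summed to 387, 211, 503 and 0 CPM. Ctss and Ly6c2 of that list each had at least 20 UMIs over D+F+P and D+F. The B cell genes Cd79b, Ms4a1 and Pax5 were at 0, and the list's 7 genes summed to 102, 30.2, 38.7 and 0 CPM. The innate-like T cell genes Zbtb16, Trdc, Trgv2 and Tcrg-C1 were also at 0, the 13 genes of that list reaching 109, 40.2, 323 and 0 CPM. The dendritic list was the exception in level, at 788 CPM in D+F+P, 926 in D+F, 2684 in aPD-1 and 194 in control over 14 genes, while its Xcr1, Clec9a and Ccl22 were at 0. Its part in the results below was not tested.

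In number, the Foxp3-negative CD4 T cells were rare in every library and nearly absent from the control. They made up 36 of 2445 kept barcodes in D+F+P (1.47%, exact Clopper-Pearson 95% interval 1.03 to 2.03%), 22 of 2490 in D+F (0.884%, 0.555 to 1.33%), 23 of 2240 in aPD-1 (1.03%, 0.652 to 1.54%) and 1 of 2286 in control (0.0437%, 0.00111 to 0.243%). The intervals of the treated libraries overlapped one another, and none reached the control's. Set against barcodes with a CD3 UMI, of which control had 74, the order changed. Their share of those barcodes was 2.98% of 1210 in D+F+P (2.09 to 4.10%), 5.43% of 405 in D+F (3.44 to 8.11%), 3.55% of 647 in aPD-1 (2.27 to 5.29%) and 1.35% in control (0.0342 to 7.30%). Here the control interval covered the shares of the treated libraries, though not the whole D+F interval. Over the libraries 820 of 2336 barcodes with a CD3 UMI had no UMI of Cd4, Cd8 or Foxp3, and CD4 T cells among those are not counted here.

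**Figure D1:**
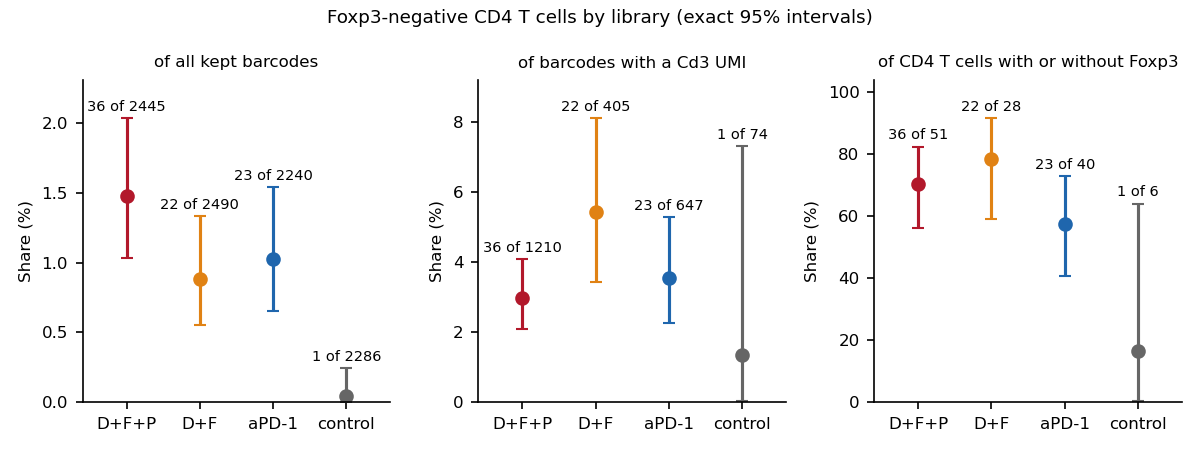
Share of Foxp3-negative CD4 T cells in each library (points) with exact 95% intervals (bars), as a percent of all kept barcodes, of barcodes with a Cd3 UMI and of CD4 T cells with or without Foxp3. Of all kept barcodes the control library, with 1 cell, lies below the other 3; against barcodes with a Cd3 UMI its interval covers their shares.

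Within the CD4 compartment, cells without Foxp3 outnumbered cells with it in all 3 treated libraries. They were 36 of 51 CD4 T cells in D+F+P (70.6%, 56.2 to 82.5%), 22 of 28 in D+F (78.6%, 59.0 to 91.7%), 23 of 40 in aPD-1 (57.5%, 40.9 to 73.0%) and 1 of 6 in control (16.7%, 0.421 to 64.1%). All of these intervals overlapped, and the Foxp3-positive side held 15, 6, 17 and 5 cells.

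Compared with Foxp3-positive CD4 T cells of the same tumours, the Foxp3-negative cells carried more of 2 ligands of the tumour necrosis factor family. They carried less of the granzyme gene Gzmb, the growth factor gene Areg and several receptor genes. For each library the UMIs of each class were added up, and the classes were compared with edgeR's quasi-likelihood test, the library as a block (n = 4 libraries), with Benjamini-Hochberg adjustment over 1576 genes. At an adjusted p under 0.05, 9 genes were higher (0.571%) and 23 were lower (1.46%). The cells were split by Foxp3, so Foxp3 itself and the other genes of the selection were left out. The median depth was 2584 UMIs in the Foxp3-negative and 4198 in the Foxp3-positive cells. In D+F+P it was 2665.5 and 7051. The control library entered with 1 Foxp3-negative cell and 5 Foxp3-positive cells, and without it 22 genes were higher and 23 lower. Without D+F the counts were 4 and 3, without aPD-1 5 and 15, and without D+F+P 3 and 8, and in cells with no pigment UMI no gene passed.

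Tnfsf8 encodes CD30 ligand and lies on chromosome 4 (63831308 to 63861347, minus strand). It stood at 241 CPM in D+F+P, 221 in D+F, 219 in aPD-1 and 194 in the control cell among Foxp3-negative cells, and had no UMI in any Foxp3-positive cell. It was met in 24 of 82 against 0 of 43 cells. Against a floor of 3 UMIs per library, it was at least 9.02-fold higher in D+F+P, at least 1.48-fold in D+F and at least 6.08-fold in aPD-1 (adjusted p = 1.59e-05). Tnfsf11 encodes RANK ligand, a survival signal for dendritic cells and the main inducer of osteoclasts, and lies on chromosome 14 (78277445 to 78308043, minus strand). It stood at 226, 443, 348 and 968 CPM in Foxp3-negative cells of D+F+P, D+F, aPD-1 and control, against 0, 0, 24.0 and 0 CPM in Foxp3-positive cells (log2 fold 5.13, SE 0.685, adjusted p = 4.77e-06). Both ligands were higher in the Foxp3-negative cells in 4 of 4 libraries.

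Gzmb, the serine protease of cytotoxic granules on chromosome 14 (56258838 to 56262260, minus strand), ran the other way. Foxp3-negative cells held 255 CPM in D+F+P, 111 in D+F, 12.9 in aPD-1 and 0 in control, against 516, 3241, 505 and 2254 CPM in Foxp3-positive cells (log2 fold -3.26, SE 0.473, adjusted p = 1.59e-05). Areg, the epidermal growth factor ligand amphiregulin, stood at 73.0, 342, 90.3 and 0 CPM against 169, 2892, 289 and 1914 CPM (log2 fold -2.47, SE 0.417, adjusted p = 0.000209), a call lost without the D+F library. Gzmb and Areg were each lower in all 4 libraries. The Foxp3-positive cells held 238 Gzmb UMIs in 22 of 43 cells, and the highest cell gave 26.9% of them. They held 163 Areg UMIs in 18 of 43 cells, and the highest cell gave 28.2%. The level of a single library can therefore rest largely on such a cell. The comparison without these highest cells was not tested. Gzmb lost its call when only cells with no pigment UMI were used and when each cell was thinned to 500 UMIs.

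Receptors fell together with them. The regulatory T cell list had 11 tested genes, of which 0 rose and 3 fell, with a median log2 fold of -1.17 against -0.05 over all genes. The genes that fell were Tnfrsf9 (4-1BB), Ctla4 and Tnfrsf18 (GITR), the last losing its call without the D+F or the D+F+P library. Tnfrsf9 stood at 387, 905, 581 and 0 CPM in Foxp3-negative cells of D+F+P, D+F, aPD-1 and control, against 1317, 2842, 1323 and 1606 CPM in Foxp3-positive cells (log2 fold -1.73, SE 0.309, adjusted p = 0.00034). Ctla4, the inhibitory receptor that competes for CD80 and CD86, stood at 584, 513, 774 and 387 CPM, against 1104, 1346, 2080 and 1884 CPM (log2 fold -1.39, SE 0.292, adjusted p = 0.00326), and lost its call without the aPD-1 or the D+F library. The genes that did not pass included Il2ra at a log2 fold of -1.46, Ikzf2 at -1.43, Tnfrsf4 (OX40) at -0.81 and Icos at -0.80.

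**Figure D2:**
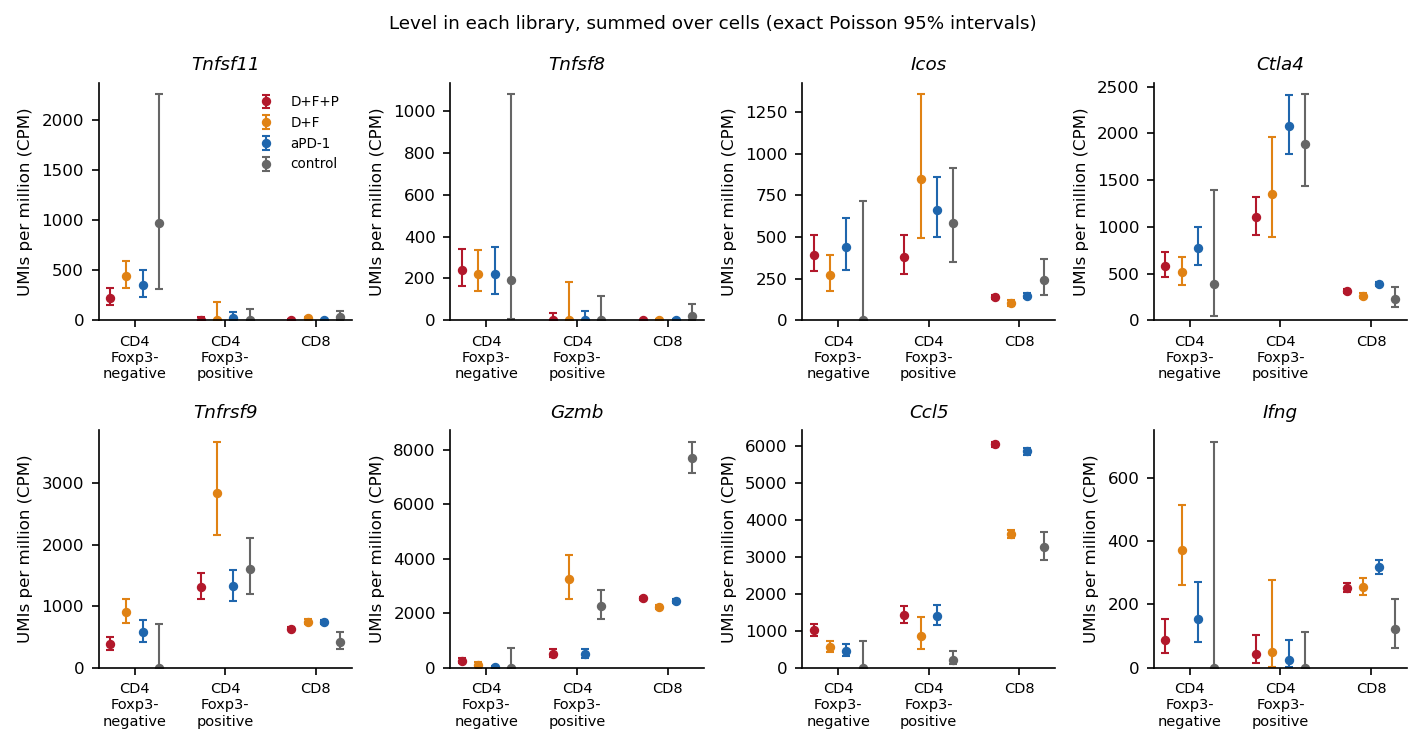
Levels in CPM of 8 genes in each library, summed over the Foxp3-negative CD4, Foxp3-positive CD4 and CD8 T cells, with exact Poisson 95% intervals (bars). Tnfsf11 and Tnfsf8 are at or near 0 outside the Foxp3-negative CD4 T cells, and Gzmb is lowest in them; the control point among them is 1 cell.

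Other genes separated the CD4 classes as well. Those higher in the Foxp3-negative cells of every library were Ifitm2, an interferon-induced membrane protein (log2 fold 2.94, adjusted p = 0.00142), Emb, a basigin-related adhesion protein (1.66, 0.0364), Marcksl1, an actin-binding substrate of protein kinase C (1.77, 0.0433), and Lgals7, a galectin (3.09, 0.0462). Those lower in every library included the glutaredoxin gene Glrx (-2.02, 0.000339) and Ly6a (Sca-1; -1.29, 0.00142). Pglyrp1, a peptidoglycan recognition protein, was at -1.58 (0.00914) and Ass1, argininosuccinate synthase, at -1.57 (0.0102). Glycolysis and hypoxia genes had 14 tested members, of which 0 rose and 3 fell: the enzymes Pkm (-1.05) and Pgk1 (-1.11) and the mitophagy receptor Bnip3 (-2.77). Pkm kept its call in 4 of 14 alternatives. Leaving out the D+F+P library ended the calls of Ifitm2, Emb, Marcksl1, Lgals7, Pglyrp1, Ass1, Pkm, Pgk1 and Bnip3. Leaving out D+F ended those of Emb, Marcksl1, Ly6a, Pglyrp1, Ass1, Pkm, Pgk1 and Bnip3, leaving out aPD-1 those of Marcksl1, Lgals7, Ass1, Pkm and Pgk1, and leaving out control those of Pkm and Bnip3. The activation and immediate early list had 13 tested members and none called, with 12 of 13 positive and a median log2 fold of 0.43. No actomyosin or ROCK pathway gene (17 tested) and no proliferation gene (14 tested) was called. The proliferation genes had a median log2 fold of -0.69, with 2 of 14 positive. In simulated data this comparison recovered 16 of 63 genes changed 2-fold, so the lack of a call does not show equal levels.

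Compared with CD8 T cells, the Foxp3-negative CD4 T cells were richer in co-stimulatory and helper genes and poor in granule genes. Of 2066 genes in the same edgeR test, 186 were higher (9.00%) and 98 lower (4.74%). Of 11 co-stimulation and help genes tested, 7 rose and 0 fell, with a median log2 fold of 1.18 against -0.02 over all genes. This was not particular to the Foxp3-negative cells. Against Foxp3-positive CD4 T cells, 2 of 11 genes of the list were higher and 2 lower, with a median of -0.80. There Tnfrsf4, Icos and Tnfrsf18 had negative log2 folds. Of 13 cytotoxic effector genes, 1 rose and 12 fell, with a median of -3.40. The median depth was 2584 UMIs in the Foxp3-negative CD4 T cells and 5322 in CD8 T cells, and 204 of 1271 CD8 T cells but 7 of 82 CD4 cells had under 10% ribosomal protein UMIs. Without the control library the counts were 274 higher and 297 lower, without aPD-1 108 and 55, and without D+F+P 60 and 34.

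On the helper side, Tnfsf11 and Tnfsf8 again led. Tnfsf11 stood at 226, 443, 348 and 968 CPM in D+F+P, D+F, aPD-1 and control, against 6.38, 21.5, 3.01 and 33.1 CPM in CD8 T cells (log2 fold 5.19, SE 0.392, adjusted p = 1.45e-15). Tnfsf8 was met in 24 of 82 cells against 13 of 1271 CD8 T cells (log2 fold 6.69, SE 0.621, adjusted p = 2.12e-12). Tnfrsf4, the receptor OX40 that prolongs CD4 T cell responses, stood at 642, 825, 1187 and 1161 CPM against 193, 317, 288 and 198 CPM (log2 fold 1.76, SE 0.204, adjusted p = 1.4e-09). These were higher in all 4 libraries. Icos rose in the fit (log2 fold 1.36, adjusted p = 0.000115), being higher in 3 of 4 libraries and at 0 in the control cell, and lost its call without the D+F+P library. Cd28, the primary co-stimulatory receptor, did not pass, at a log2 fold of 0.64 (adjusted p = 0.123).

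Penk, the gene of the opioid precursor proenkephalin on chromosome 4 (4133531 to 4138819, minus strand), was among the leading genes. It stood at 292, 241, 374 and 1355 CPM in D+F+P, D+F, aPD-1 and control, against 38.9, 29.9, 43.3 and 11.0 CPM in CD8 T cells (log2 fold 3.17, SE 0.290, adjusted p = 1.97e-12). It came from 12 of 82 cells, the highest of which gave 23.0% of the UMIs. Others called higher in all libraries were Nfkbia, the NF-kappa-B inhibitor (log2 fold 1.76), Sdf4, a Golgi calcium-binding protein (1.84), and Ramp3, a receptor activity-modifying protein (3.71). Il1r2, the decoy receptor for interleukin-1 (2.42), Dusp14, a MAP kinase phosphatase (2.63), and Rora, a nuclear receptor (2.32), belonged to the same group. Nfkbia, Sdf4, Ramp3, Il1r2, Dusp14 and Rora kept their calls in all alternatives run.

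Granule and chemokine genes were far lower. Gzmb stood at 255, 111, 12.9 and 0 CPM in D+F+P, D+F, aPD-1 and control, against 2544, 2229, 2442 and 7704 CPM in CD8 T cells (log2 fold -4.27, SE 0.257, adjusted p = 2.81e-19). Ccl5, a chemokine of memory and effector T cells, stood at 1007, 563, 452 and 0 CPM against 6049, 3615, 5860 and 3273 CPM (log2 fold -2.98, SE 0.187, adjusted p = 7.9e-19). Both were lower in 4 of 4 libraries. Prf1 (perforin), Gzmf, Klrd1, Gzmk and Nkg7 fell with log2 folds of -4.49, -4.57, -3.40, -4.26 and -1.79. Srgn, the granule proteoglycan serglycin, was the cytotoxic list member that rose (0.95).

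Inhibitory receptor genes were mostly lower than in CD8 T cells, with 1 of 10 tested rising and 6 falling. Pdcd1, which encodes PD-1, stood at 263, 282, 194 and 194 CPM in D+F+P, D+F, aPD-1 and control, against 503, 609, 637 and 231 CPM (log2 fold -1.17, SE 0.242, adjusted p = 0.00025). Havcr2 (TIM-3) fell by 2.26, Cd160 by 2.19 and Lag3 by 0.89 on the log2 scale. The member that rose was Ctla4 (0.94). Ctla4 also belongs to the regulatory T cell list, of which 9 of 12 tested genes rose and 0 fell against CD8 T cells, Ebi3 (5.70), Izumo1r (3.67), Il2ra (1.34) and Ikzf2 (1.02) among them.

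Against CD8 T cells, homing genes and interferon-response genes leaned toward the Foxp3-negative CD4 cells. Of 11 chemokine receptor and homing genes, 6 rose and 1 fell. S1pr1, the receptor for lymphoid egress, rose by 2.99, Ccr8 by 2.92, Cxcr3 by 2.07 and Ccr7 by 1.65, while the tissue-retention receptor Cxcr6 fell by 1.10. Against Foxp3-positive CD4 T cells, 1 of 10 homing genes was higher (Itgb1) and 0 lower, with a median of -0.35. There 3 of 10 were positive, S1pr1 at 2.31 among them, while Ccr8 (-0.85), Ccr7 (-0.65) and Cxcr3 (-0.50) were negative. Of 9 type I interferon response genes, 8 rose and 0 fell, with a median log2 fold of 1.14; they included Slfn1 (2.15), Rtp4 (1.88), Irf7 (1.49) and Isg15 (0.97). Isg20, at 1.14, was at -0.33 in the cells with no pigment UMI. Against Foxp3-positive CD4 T cells, 0 of 8 type I interferon response genes were higher and 1 was lower (Ifi27l2a, -1.01). The median there was -0.09. Of 17 proliferation genes, 0 rose and 7 fell, Rrm2 at -2.25 and Top2a at -0.95 among them. None of 17 actomyosin and ROCK pathway genes was called, Rock1 being at 0.11, and 1 of 14 receptor signalling genes was, the inhibitory co-receptor gene Cd5 at 1.71.

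**Figure D3:**
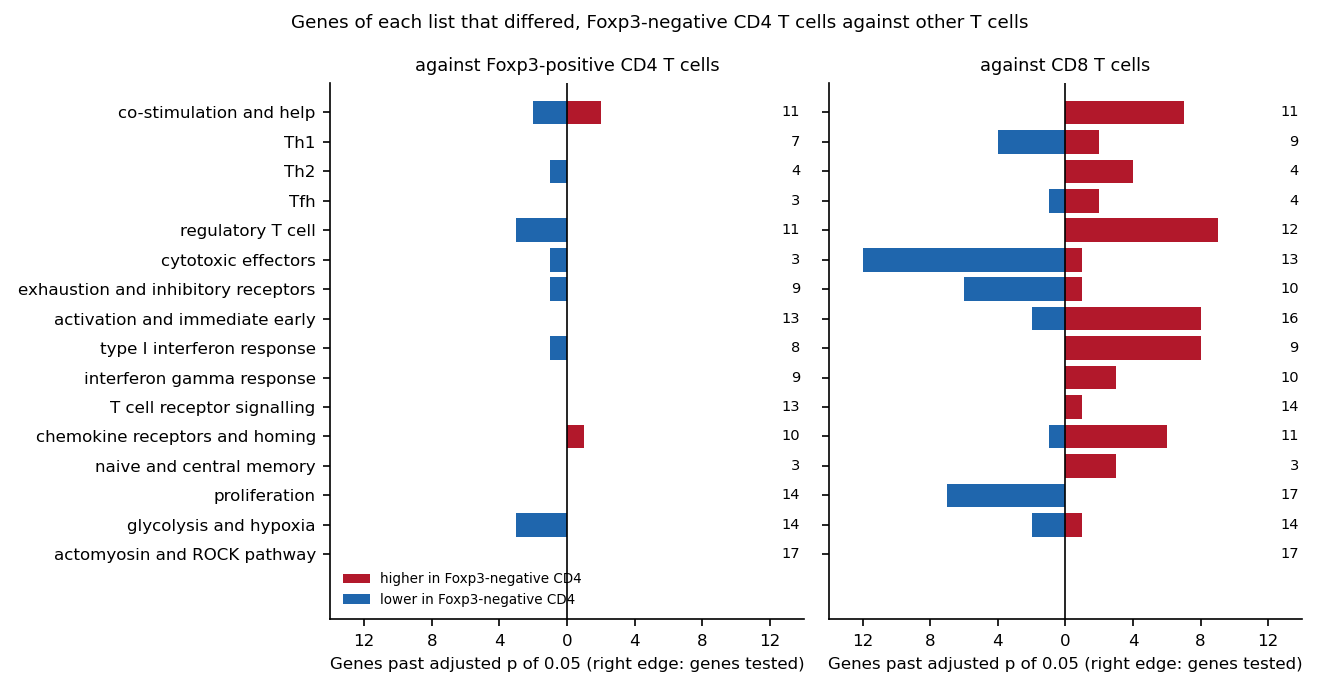
Number of genes in each list past an adjusted p of 0.05 in edgeR's quasi-likelihood test, higher (right) or lower (left) in Foxp3-negative CD4 T cells, against Foxp3-positive CD4 T cells and against CD8 T cells; the figure at the right edge is the number tested. Against CD8 T cells, co-stimulation genes are on the higher side and cytotoxic genes on the lower.

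The effector genes were unevenly spread over single cells. A UMI of Tnfsf8 or Tnfsf11 was found in 28 of the 82 cells and a Gzmb UMI in 21, and 1 cell had both. Ifng, which encodes interferon gamma, was met in 26 cells, 13 of them among the 28 with Tnfsf8 or Tnfsf11 and 8 of them among the 21 with Gzmb. Csf2, the gene of the growth factor GM-CSF, was met in 6 cells, and all 6 also held Ifng and a Tnfsf8 or Tnfsf11 UMI. The 4 cells with Il4, Il5 or Il13, cytokines of type 2 helper cells, all held Tnfsf8 or Tnfsf11. Cells with Tnfsf8 or Tnfsf11 and cells with Il2ra or Ikzf2 shared 8 members. These overlaps are descriptions, since deeper cells show more genes of any kind.

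The shares of cells with a UMI are given by library without thinning first. Tnfsf8 or Tnfsf11 had a UMI in 8 of 36 cells in D+F+P (22.2%, 10.1 to 39.2%), 11 of 22 in D+F (50%, 28.2 to 71.8%), 8 of 23 in aPD-1 (34.8%, 16.4 to 57.3%) and the 1 control cell. The same genes were met in 6 of 5096 melanoma cells and 53 of 1271 CD8 T cells, the median depth being 18000 UMIs in melanoma cells and 2584 in the 82 cells. Gzmb had a UMI in 17 of 36 cells in D+F+P (47.2%, 30.4 to 64.5%), 3 of 22 in D+F (13.6%, 2.91 to 34.9%), 1 of 23 in aPD-1 (4.35%, 0.11 to 21.9%) and 0 of 1 in control. Melanoma cells of the same libraries, at their greater depth, showed Gzmb in 8.44%, 1.55%, 3.36% and 0.416%. Whether free RNA or CD8 T cells with no Cd8 UMI added to the Gzmb shares was not tested. After thinning each cell to 500 UMIs, Gzmb was left in 4 of 36, 2 of 22 and 0 of 23 cells, too few to order the libraries.

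Ifng was met in 9 of 36 cells in D+F+P, 11 of 22 in D+F and 6 of 23 in aPD-1, which became 11.1%, 13.6% and 13% after thinning. Cxcr5, Bcl6 or Il21, genes of follicular helper cells, were met in 1 of 36, 6 of 22 and 2 of 23 cells. The type 17 genes Il17a and Il17f had no UMI in any of the 82 cells.

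**Figure D4:**
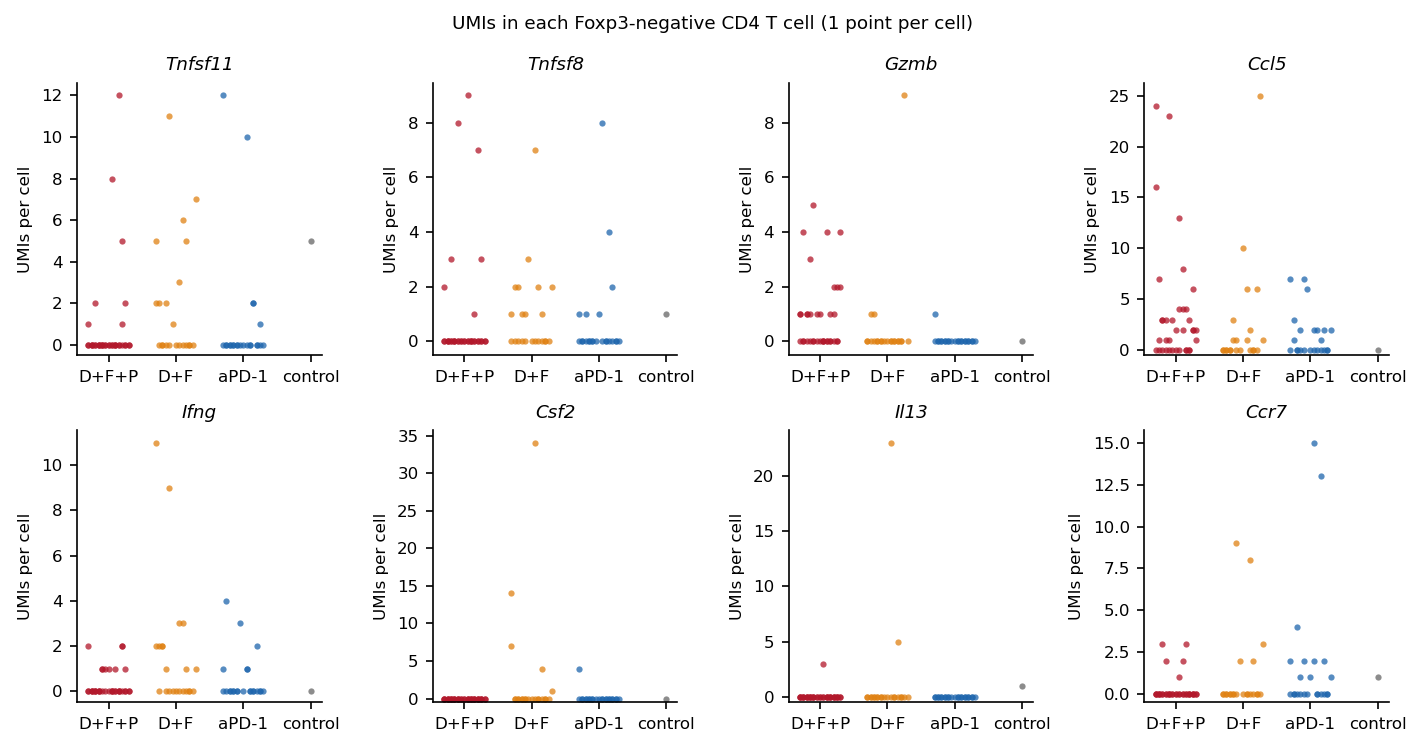
UMIs of 8 genes in each of the 82 Foxp3-negative CD4 T cells (1 point per cell, sideways spread for legibility) by library. Gzmb points above 0 lie mostly in D+F+P, and most Csf2 UMIs come from 5 cells of D+F, one of them with 34.

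Between the D+F+P and D+F libraries, which differ by the antibody against PD-1, the Foxp3-negative CD4 T cells of D+F+P held more of several signalling and homing transcripts and less of Ifng and of several glycolysis transcripts. Of 1600 genes with at least 20 UMIs in the pair, 144 were at least 2-fold higher in D+F+P (9.00%) and 121 at least 2-fold lower (7.56%). Intervals are exact conditional binomial intervals of the ratio of CPM. The D+F+P library also enters the comparison with aPD-1 below.

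The genes most clearly higher in D+F+P were regulators of signalling and of mRNA. Dusp2, a phosphatase that switches off MAP kinases, had 85 UMIs in D+F+P and 10 in D+F (620 and 101 CPM, log2 ratio 2.62, 95% interval 1.68 to 3.74), in 24 of 36 and 6 of 22 cells. Pnrc1, a nuclear receptor coactivator, had 69 and 9 UMIs (log2 ratio 2.48, 1.47 to 3.66), and Zfp36l2, an mRNA-decay factor, 56 and 9 (2.17, 1.15 to 3.38). Ssh2, a phosphatase of the actin-severing protein cofilin, had 32 and 4 UMIs (2.54, 1.04 to 4.5). Rac1, a small GTPase, had 43 and 7 (2.16, 0.99 to 3.55). No single cell carried these differences, the ratios without the top cell of each library lying between 2.16 and 3.13. Of 17 actomyosin and ROCK pathway genes with enough UMIs, none differed 2-fold, with a median of -0.30 against -0.07 over all genes.

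Receptors for co-stimulation and homing differed one by one. Cd28 had 50 UMIs in D+F+P and 15 in D+F (log2 ratio 1.27, 0.42 to 2.21), in 26 of 36 and 7 of 22 cells. The inhibitory receptor gene Tigit had 75 and 26 UMIs (1.07, 0.40 to 1.77). Icos, with 54 and 27 UMIs, had an interval that included 0 (0.54, -0.15 to 1.26), as did Tnfrsf4 with 88 and 82 (-0.36, -0.81 to 0.09). Tnfrsf9 was lower, with 53 UMIs in D+F+P and 90 in D+F (-1.23, -1.74 to -0.72). Of 9 chemokine receptor and homing genes, 4 were 2-fold higher and 1 was 2-fold lower. S1pr1 had 19 and 3 UMIs (2.20, 0.44 to 4.6), Cxcr3 19 and 4 (1.79, 0.20 to 3.80), and Ccr7, which guides cells to lymph nodes, 11 and 24 (-1.59).

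Of 5 cytokine genes with enough UMIs, 3 were at least 2-fold lower in D+F+P than in D+F. Ifng, on chromosome 10 (118441046 to 118445892, plus strand), had 12 UMIs in D+F+P and 37 in D+F (87.6 and 372 CPM, log2 ratio -2.09, -3.16 to -1.12), and -2.03 without the top cell of each library. Csf2, on chromosome 11 (54247271 to 54249667, minus strand), had 0 and 60 UMIs. At a floor of 3 UMIs it was at least 27.6-fold lower, while the upper end of the exact interval was a log2 ratio of -4.44. Its 60 UMIs came from 5 cells of D+F, and 1 cell gave 34 of them. Il13, on chromosome 11 (53631324 to 53634702, minus strand), had 3 and 28 UMIs (-3.69, -6.05 to -1.99), from 1 cell of D+F+P and 2 of D+F, 1 of which gave 23. The others were Ltb (lymphotoxin beta) at 0.44 and Tgfb1 at 0.23. Csf2 and Il13 thus rest on a few cells of 1 library.

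Of 12 glycolysis and hypoxia genes, 5 were at least 2-fold lower in D+F+P, 1 was at least 2-fold higher and the median log2 ratio was -0.86, against -0.07 over all genes. Aldoa, the glycolytic aldolase, had 168 UMIs in D+F+P and 282 in D+F (-1.21, -1.49 to -0.93), in 29 of 36 and 21 of 22 cells. Tpi1 had 60 and 122 (-1.49, -1.96 to -1.03), Pgk1 74 and 124 (-1.21, -1.64 to -0.78) and Pgam1 33 and 70 (-1.55, -2.19 to -0.93). The higher one was Hif1a, the hypoxia-inducible transcription factor, with 72 and 24 UMIs (1.12, 0.44 to 1.85). Tubb5, a tubulin of dividing cells, had 50 and 116 (-1.68, -2.19 to -1.19). Hist1h3e, with 5 and 32, turned to 1.07 without the top cells, 1 cell of D+F having 31 of its UMIs, and 1 cell of D+F gave 31 of the 49 Ube2c UMIs.

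Of 5 cytotoxic effector genes with enough UMIs, 2 were at least 2-fold higher in D+F+P than in D+F (Gzmb and Ctsw) and 1 was at least 2-fold lower (the granzyme gene Gzmc, log2 ratio -2.11). Srgn was at -0.12. Gzmb had 35 UMIs in D+F+P and 11 in D+F (255 and 111 CPM, 1.21, 0.20 to 2.33), and 1 cell of D+F gave 9 of the 11, so the ratio without top cells was 3.45. Ccl5 had 138 and 56 UMIs (0.84, 0.38 to 1.31) and Nkg7 146 and 63 (0.75, 0.31 to 1.2). Tnfsf8 had 33 and 22 UMIs (0.12, -0.70 to 0.97). Tnfsf11 had 31 UMIs in D+F+P and 44 in D+F (-0.97, -1.68 to -0.27).

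**Figure D5:**
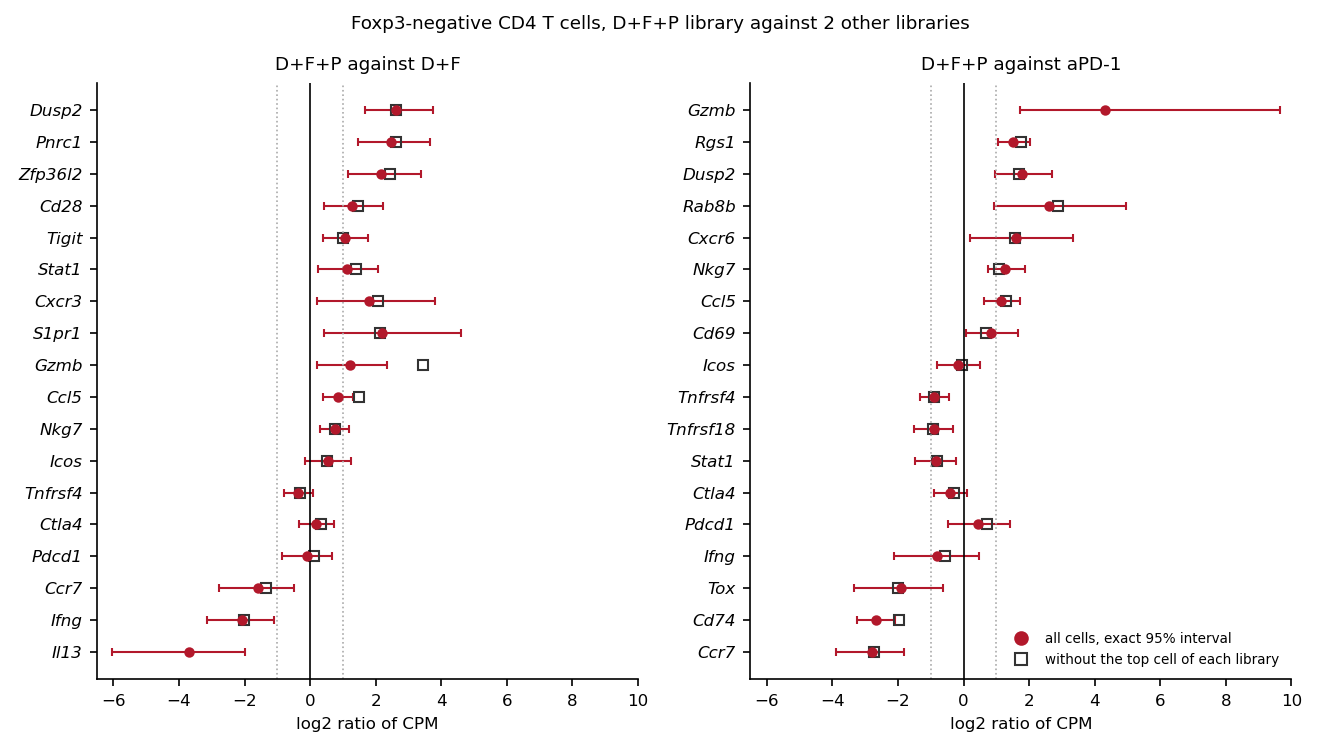
Log2 ratio of CPM in Foxp3-negative CD4 T cells of D+F+P against D+F (left) and against aPD-1 (right) with exact 95% intervals (bars), and the ratio without the cell of each library that had most UMIs of the gene (squares, absent where a count became 0). Dotted lines mark 2-fold; Csf2, at 0 UMIs in D+F+P, is not drawn, and Gzmb and Dusp2 lie above 0 in both panels while Ccr7 lies below 0.

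Between the D+F+P and aPD-1 libraries, which differ by doxorubicin and fasudil, granzyme B was the leading gene. Of 1511 genes, 82 were at least 2-fold higher in D+F+P (5.43%) and 81 at least 2-fold lower (5.36%). Gzmb had 35 UMIs in D+F+P and 1 in aPD-1 (255 and 12.9 CPM, log2 ratio 4.31, 1.73 to 9.65), in 17 of 36 and 1 of 23 cells. It was met in 988 of 1271 CD8 T cells. Barcodes without Cd4, Cd8 or Foxp3 UMIs were 40.3% of those with a CD3 UMI in D+F+P and 27.0% in aPD-1. Whether CD8 T cells with no Cd8 UMI added to the Gzmb counts was not tested, here or against D+F. Rgs1, a regulator of G-protein signalling found in tissue T cells, had 218 and 43 UMIs (1.52, 1.04 to 2.03), in 29 of 36 and 13 of 23 cells. Dusp2 had 85 and 14 (1.78, 0.95 to 2.71). Cdk11b, a cyclin-dependent kinase, had 28 and 2 (2.99, 1.0 to 6.10), and Rab8b, a trafficking GTPase, 32 and 3 (2.59, 0.92 to 4.94).

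Of 4 cytotoxic effector genes with enough UMIs in this pair, 2 were at least 2-fold higher in D+F+P than in aPD-1 and 0 lower. Of 7 type 1 helper genes, 2 were higher and 2 were lower, Ccl4 at -3.10 and Ccl3 at -3.82. For Ccl4, 1 aPD-1 cell gave 32 of the 34 UMIs there, and the ratio was 0.36 without the top cells. Of 7 tissue residence and adhesion genes, 2 were higher and 0 lower. Ccl5 had 138 UMIs in D+F+P and 35 in aPD-1 (1.16, 0.61 to 1.74), and Cxcr6 27 and 5 (1.61, 0.21 to 3.34). Nkg7 had 146 and 34 (1.28, 0.73 to 1.86) but was at -0.061 after thinning to 500 UMIs, and 1 cell of D+F+P gave 44 of its UMIs. Cd69, an early activation and retention marker, had 60 and 19 (0.84, 0.07 to 1.66). The lymph-node homing receptor Ccr7, on chromosome 11 (99144196 to 99155077, minus strand), was lower, with 11 UMIs in D+F+P and 43 in aPD-1 (80.3 and 555 CPM, -2.79, -3.89 to -1.81), in 5 of 36 and 10 of 23 cells. It stayed at -2.74 without the top cells.

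Several activation genes were lower in D+F+P than in aPD-1. Of 15 activation and immediate early genes, 1 was at least 2-fold higher (Dusp2) and 7 at least 2-fold lower, with a median log2 ratio of -0.88 against -0.02 over all genes. Egr1, a transcription factor induced by receptor signalling, had 14 and 23 UMIs (-1.54, -2.61 to -0.52), and Fos 24 and 36 (-1.41, -2.22 to -0.62). Zfp36, an mRNA-decay factor, had 57 and 85 (-1.40, -1.91 to -0.90) and Ier2 43 and 56 (-1.2, -1.81 to -0.60).

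None of 11 co-stimulation genes differed 2-fold between D+F+P and aPD-1. Tnfrsf4 had 88 UMIs in D+F+P and 92 in aPD-1 (-0.89, -1.32 to -0.45), Tnfrsf18 had 47 and 50 (-0.91, -1.52 to -0.31), and Tox, a factor linked to T cell exhaustion, had 8 and 17 (-1.91, -3.33 to -0.62). Tnfsf8 (0.13, -0.75 to 1.07), Tnfsf11 (-0.62, -1.41 to 0.18), Ifng (-0.82, -2.11 to 0.46) and Icos had intervals that included 0. The antigen presentation genes of the dendritic list moved with 1 cell: Cd74 had 33 and 118 UMIs (-2.66), 67 of the 118 in 1 aPD-1 cell, and 19 of 22 H2-Ab1 UMIs in aPD-1 came from 1 cell. Hist1h1e and Ccl4 likewise drew 66 of 75 and 32 of 34 aPD-1 UMIs from 1 cell.

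The T cell receptor beta genes of the Foxp3-negative CD4 T cells were varied. A single leading Trbv gene could be assigned in 59 of 82 cells, over 19 genes, and the commonest, Trbv13-1, was in 6 of them (10.2%, 3.82 to 20.8%). In D+F+P 25 cells spread over 16 genes, in D+F 18 cells over 12 and in aPD-1 15 cells over 11. Among CD8 T cells, 1039 of 1271 cells spread over 21 genes, and Trbv12-1 took 199 (19.2%, 16.8 to 21.7%). By library Trbv12-1 took 36.8% of CD8 T cells in aPD-1, 26.9% in D+F and 3.56% in D+F+P, where Trbv13-2 led at 20.5%. For the CD4 cells the leading gene's interval reached 31.2% in D+F+P, 41.4% in D+F and 40.5% in aPD-1. These counts are too few to set the variety of the classes against each other. These come from gene counts, and receptor contigs were not used here.

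The single control cell, with 5167 UMIs, had 5 UMIs of Tnfsf11, 7 of Penk, 6 of Tnfrsf4, 2 of Cd4 and 1 each of Tnfsf8, Il13 and Ccr7. It had none of Gzmb, Ifng or Icos. With 1 cell, no ratio to control was formed for any gene.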

How the data were processed

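Tumour suspensions were measured by 5′ single-cell RNA sequencing. Cell Ranger 3.1.0 and the GRCm38 build are named in the submitters' processing notes; the annotation release is not given in the sources used here. The authors deposited raw UMI counts (31053 features for each barcode), not normalized. Gene positions were taken from the GENCODE M21 annotation of GRCm38.

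The members, gene lists and tests were chosen with earlier results of these data known. No doublet caller was run, so doublets remain. Doublets and free RNA can add transcripts of other cells.

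Levels are CPM of the UMIs added over the cells of a class in a library. Classes were compared with edgeR 4.0.16 (R 4.3.3; TMM, filterByExpr, library as a block, quasi-likelihood test, Benjamini-Hochberg adjustment at 0.05); DESeq2 1.42.0 was an alternative. The block is the tumour library itself, from which both classes come. The edgeR test of each comparison was also run on simulated data with known changes, at the dispersion of the real fit. It recovered 16 of 63 genes changed 2-fold against Foxp3-positive CD4 T cells and 41 of 61 against CD8 T cells. DESeq2 was not run on simulated data. The intervals of the library ratios were run on counts simulated from the same binomial model that the intervals assume. That run cannot show how they hold where the UMIs of a gene are clustered in single cells. Libraries were compared by CPM ratio with exact 95% intervals at 20 or more UMIs in the pair, called at 2-fold. A pair needed 20 cells in each library, which left out control. Shares carry exact Clopper-Pearson intervals. A gene at 0 was given as a bound at 3 UMIs per library, taking the other count as it stands.

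Named genes were, for each comparison of classes, the 10 of smallest p in each direction that moved the same way in all libraries, and for each pair the 5 at each end of the interval bounds with at least 30 UMIs. Rule genes, receptor, ribosomal and unnamed genes, and genes under 25% of the level in other barcodes were left out of that choice. A fixed gene set and the outermost members (no more than 4 a side) of described lists were added; a few further members of lists were named after their values were seen. The 23 alternative settings included thinning to 500 UMIs, with seed 1. Some genes are not reported here.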

Additional observations from a re-analysis of the deposited data

Results flagged for a closer look

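Ccr7 and Pdcd1 stood in opposite order in the CD4 classes of different libraries. The log2 ratio of Foxp3-negative to Foxp3-positive CD4 T cells for Ccr7 was 1.72 in aPD-1 (555 against 168 CPM), -1.73 in D+F+P (80.3 against 267 CPM) and -2.05 in D+F (241 against 997 CPM). For Pdcd1 the ratio was 1.56 in D+F+P (263 against 89.0 CPM) and -1.12 in aPD-1 (194 against 421 CPM). The difference between libraries was not tested, since each is 1 library, and the classes hold 36 and 15 cells in D+F+P, 22 and 6 in D+F and 23 and 17 in aPD-1.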

How the results depend on the processing

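Between T cell classes, a gene's status as called or not called was unchanged in 1411 cases over the alternatives. That count includes genes called in neither setting, so it is not a number of calls that held. A call was lost in 352 cases, gained in 24 and reversed in 1: Isg20 against CD8 T cells, at -0.33 in cells with no pigment UMI. Sign changes of uncalled genes were not counted. Between libraries 484 ratios moved less than their interval, 51 moved further, and Nkg7 (D+F+P against aPD-1) reversed (-0.061 with each cell at 500 UMIs). Settings that left few UMIs were not counted, and only ratios of at least 2-fold could count as reversed. Among those not counted, Hist1h3e (D+F+P against D+F) turned to 1.07 without the top cells. Against aPD-1, Hist1h1d turned to 0.71 and Ccl4 to 0.36. The cause of these moves was not tested, beyond fewer cells, genes or UMIs in some settings.

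Genes higher and lower than in Foxp3-positive CD4 T cells numbered 4 and 11 with DESeq2. They numbered 3 and 15 in cells with no Il2ra or Ikzf2 UMI, and 1 and 2 after thinning to 500 UMIs. In cells with no pigment UMI, edgeR called 0 and 0, with 5 and 15 at an unadjusted p under 0.05; DESeq2 was not run on those cells. With no filter on low counts 2 were lower. Against CD8 T cells the counts were 71 and 50 with at least 2 Cd4 UMIs, 91 and 56 with no Il2ra or Ikzf2 UMI, 35 and 38 with no pigment UMI, and 23 and 13 after thinning. DESeq2 gave 42 lower there, and no filter on low counts gave 279 lower.

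Both classes come from the same library, so the library was the replicate block. With no replicate block, 3 genes were higher and 5 lower than in Foxp3-positive cells, and 106 higher and 49 lower than in CD8 T cells. Leaving out 1 library at a time gave 3 to 22 higher and 3 to 23 lower against Foxp3-positive cells, and 60 to 274 higher and 34 to 297 lower against CD8 T cells. No paired analysis was possible between libraries because each group has 1 sample.

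Genes at least 2-fold higher and lower in D+F+P than in D+F numbered 434 and 334 at 10 or more UMIs in the pair, 31 and 31 at 50 or more, and 15 and 17 after thinning to 500 UMIs. Called at 1.5-fold they were 280 and 315. With at least 2 Cd4 UMIs 72 were higher, and with no Il2ra or Ikzf2 UMI 66 were higher. For D+F+P against aPD-1 the counts were 326 and 279 at 10 or more UMIs, 12 and 16 at 50 or more, 7 and 10 after thinning, and 226 and 244 at 1.5-fold. With at least 2 Cd4 UMIs 40 were higher, with no pigment UMI 43 were higher, and with no Il2ra or Ikzf2 UMI 43 were lower. Under median-of-ratios scaling, D+F+P against D+F gave 161 higher and 93 lower.

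The share of kept barcodes in D+F+P was 2.08% at 1000 or more UMIs and 2.06% with a ribosomal share of at least 10%. In D+F+P, D+F and aPD-1 it was 0.532%, 0.442% and 0.357% with at least 2 Cd4 UMIs. With no pigment UMI it was 0.613%, 0.0402% and 0.268%, and 0% in control. With no Il2ra or Ikzf2 UMI it was 0.818% in D+F+P and 0.536% in aPD-1. With other denominators the shares of D+F+P, D+F, aPD-1 and control were 2.98%, 5.43%, 3.55% and 1.35% of barcodes with a Cd3 UMI, and 70.6%, 78.6%, 57.5% and 16.7% of CD4 T cells.

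Across settings, shares of cells with a UMI were set against those with each cell thinned to 500 UMIs, whereas the report mainly gives them not thinned. Not thinned, Tnfsf8 or Tnfsf11 was in 50% of D+F and 34.8% of aPD-1 cells, Il2ra or Ikzf2 in 44.4% of D+F+P and 47.8% of aPD-1, and Ifng in 50% of D+F. Gzmb was in 47.2% of D+F+P and Mki67 or Top2a in 25% of D+F+P and 36.4% of D+F. Thinned to 1000 UMIs, Cd40lg was in 0% of D+F+P, Ifng in 35% of D+F and Mki67 or Top2a in 23.3% of D+F+P. With at least 2 Cd4 UMIs, Cd40lg was in 0% of D+F, Gzmb in 0% of D+F+P and of D+F, Il2ra or Ikzf2 and Mki67 or Top2a in 0% of aPD-1, and Tnfsf8 or Tnfsf11 in 30.8% of D+F+P. With no Il2ra or Ikzf2 UMI, Cd40lg was in 0% of D+F+P and Tnfsf8 or Tnfsf11 in 0% of aPD-1. With no pigment UMI, Cd40lg, Ifng, Gzmb and Mki67 or Top2a were in 0% of D+F+P, and Mki67 or Top2a in 0% of aPD-1. At 500 UMIs per cell and 22 to 36 cells a library, such shares rest on a few cells.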

Other observations

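Of 10 survival and apoptosis genes tested between Foxp3-negative CD4 T cells and CD8 T cells with edgeR's quasi-likelihood test, 2 rose and 0 fell, beside 9.00% and 4.74% of all genes tested: Bcl2l1, which encodes the survival factor Bcl-xL (log2 fold 2.02), and Cdkn1a, the cell cycle inhibitor p21 (1.41). Of 10 cytokine receptor genes, 2 rose and 2 fell, Il2rb at -0.69 and Il10ra at -1.86. Lta, which encodes lymphotoxin alpha, rose by 3.47.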
